A study of Mus musculus with 6 samples.

Results

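The genes described here are 8 transcription factors that carry intestinal progenitors into the enteroendocrine lineage: Neurog3, Neurod1, Insm1, Pax4, Pax6, Nkx2-2, Isl1 and Rfx6. They were chosen by name, and all 8 are measured among the 19057 named genes of the array, each by its brightest probe over the 6 arrays. The samples were mouse small intestinal organoids, epithelial structures grown from crypts in a gel, treated with 0.5 µM tamoxifen and harvested 24 hours later. Control organoids were derived from mice of the strain Villin-Cre (3 arrays), and knockout organoids from Villin-Cre, Snai1fl/fl mice (3 arrays), so Cre and tamoxifen are common to both groups. The Villin promoter drives Cre in intestinal epithelium as a whole and not in endocrine cells alone. The labels give no age and do not say what a replicate is, so the p-values measure the spread between these arrays, which may be technical. By the title of the series, the comparison asks how Snai1 bears on the allocation of intestinal cell lineages.

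Enteroendocrine cells are the scattered hormone-secreting cells of the gut, and they arise from secretory progenitors of the crypt. Once Notch signalling is low and the factor Atoh1 is on, a short burst of the basic helix-loop-helix factor Neurog3 commits a progenitor to the endocrine fate. Neurog3 turns on Neurod1, Insm1, Pax4, Nkx2-2 and Rfx6, and these, with Pax6 and Isl1, carry the cell towards particular hormones. Snai1 and Insm1 are both zinc-finger repressors with an N-terminal SNAG domain, and Snail proteins bind the E-box letters CAGGTG.

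The E-box letters were looked for upstream of the members, because both Snai1 and the helix-loop-helix factors among them bind E-boxes. RefSeq promoter windows on GRCm38.p6, each 250 bases before to 50 after a start site, were at hand for 6 of the 8 members (7 windows, 2 of them for Pax6). Pax4 and Insm1 had no entry. CAGGTG, which is CACCTG on the opposite strand, was in 0 of the 7 windows and in 20.2% of all 32851 windows of that length. The general E-box CANNTG, which reads the same on both strands and includes CAGGTG, was in 6 of the 7 and in 72.3% of all. The 250 bases before the start site are shown for the gene that opens the program, Neurog3 (chr10:62132840-62133089, plus strand), for its helix-loop-helix successor Neurod1 (chr2:79456637-79456886, minus strand) and for Nkx2-2 (chr2:147186403-147186652, minus strand), which has the most matches of the 6 members with a window, 5′ to 3′ with each CANNTG match in capitals.
Neurog3: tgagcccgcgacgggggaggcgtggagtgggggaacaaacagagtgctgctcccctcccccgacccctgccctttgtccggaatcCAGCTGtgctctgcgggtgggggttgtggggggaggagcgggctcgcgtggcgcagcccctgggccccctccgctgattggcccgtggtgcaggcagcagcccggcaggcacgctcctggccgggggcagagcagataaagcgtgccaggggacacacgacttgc
Neurod1: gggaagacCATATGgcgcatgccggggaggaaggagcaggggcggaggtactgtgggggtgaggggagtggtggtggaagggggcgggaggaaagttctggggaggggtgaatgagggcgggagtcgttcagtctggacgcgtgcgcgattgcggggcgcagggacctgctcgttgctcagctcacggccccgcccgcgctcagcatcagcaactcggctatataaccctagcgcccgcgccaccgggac
Nkx2-2: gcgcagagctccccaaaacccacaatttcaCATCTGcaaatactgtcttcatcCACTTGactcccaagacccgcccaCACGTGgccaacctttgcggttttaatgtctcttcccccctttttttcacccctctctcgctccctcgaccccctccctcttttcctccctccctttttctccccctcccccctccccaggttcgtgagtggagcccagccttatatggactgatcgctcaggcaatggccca
The match begins 165 bases before the start site in Neurog3 and 242 before it in Neurod1, and the 3 matches of Nkx2-2 begin 220, 197 and 173 bases before it. These are descriptions of letters in 1 window a promoter.

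None of the 8 factors passed the test between genotypes, against a background of 0.131% of all genes (25 of 19057; limma, Benjamini-Hochberg adjusted p under 0.05). Neurog3 was read well above the bottom of the scale on every array, Insm1 was read above the upper quartile of all values, and the other 6 lay lower. With the replicate number as a block the count was also 0, against 0.0472% of all genes. The means of 4 members were higher in the knockout and those of 4 lower, where 49.3% of all genes were higher, and the differences ran from -0.043 to 0.073 on the log2 scale, with a median of -0.0020 against -0.00057 over all genes. At an unadjusted p under 0.05 there were 0 members, against 7.22% of all genes. For 0 of the 8 members did the knockout arrays all lie on one side of the control arrays, against 12.0% of all genes. Values are on the deposited log scale, taken as log2, which runs from 7.71 to 14.8 with a median of 7.87 and an upper quartile of 8.27. It is compressed near the bottom, so a change in a dim gene is understated by an unknown amount. In these bulk samples, fewer cells of a type and less RNA per cell cannot be told apart.

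Neurog3, the factor that commits progenitors to the endocrine fate, read 10.01, 10.04 and 9.92 on control arrays 1 to 3 and 10.15, 10.15 and 9.88 on knockout arrays 1 to 3. Knockout arrays 1 and 2 lay above every control array and knockout array 3 below every control array, so the groups overlap through knockout array 3. The difference was 0.073 ± 0.080 (SE, n = 3 each; limma adjusted p = 0.95), from 9.99 ± 0.06 to 10.06 ± 0.15 (SD). Its 95% interval of -0.12 to 0.27 is a fold of 0.918 to 1.21, taking the scale as log2, so a shift within those bounds could not be told from none. Knockout exceeded control by 0.14 in the pair numbered 1 and by 0.12 in the pair numbered 2, and lay below it by 0.034 in the pair numbered 3 (-0.034). With the replicate number as a block, the standard error was 0.042, the interval -0.041 to 0.19, and the adjusted p 0.69. Leaving out knockout replicate 3 gave a difference of 0.16 ± 0.042 (SE; limma adjusted p = 0.65), the largest on leaving out 1 array. Leaving out knockout replicate 1 or 2 gave 0.031 and 0.027. Leaving out control replicate 1, 2 or 3 gave 0.083, 0.097 and 0.038.

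Insm1, a zinc-finger repressor that acts early after Neurog3 and delays rival fates, read 8.43, 8.44 and 8.33 in control and 8.52, 8.37 and 8.35 in knockout. Knockout array 1 was the highest and control array 3 the lowest, and the other values lay between them in both groups. The difference was 0.013 ± 0.055 (SE; limma adjusted p = 0.998), with an interval of -0.12 to 0.15. Its sign turned to negative when knockout replicate 1 was left out (-0.041), when control replicate 3 was (-0.021) and with array weights (-0.00051).

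Neurod1, the helix-loop-helix factor that follows Neurog3 and drives endocrine differentiation, read 7.83, 7.84 and 7.81 in control and 7.85, 7.85 and 7.83 in knockout. These values lie within 0.1 of the median of all probes, and with no detection calls given, Neurod1 cannot be called present. Each knockout array was higher than the control array of its number, by 0.020, 0.017 and 0.025, but the groups overlap, since knockout array 3 is below control array 2. The difference of 0.021 ± 0.020 (SE; limma adjusted p = 0.94) is about the size of its error, and such agreement of 3 pairs in sign, either way, was seen in 30.8% of all genes.

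**Figure D1:**
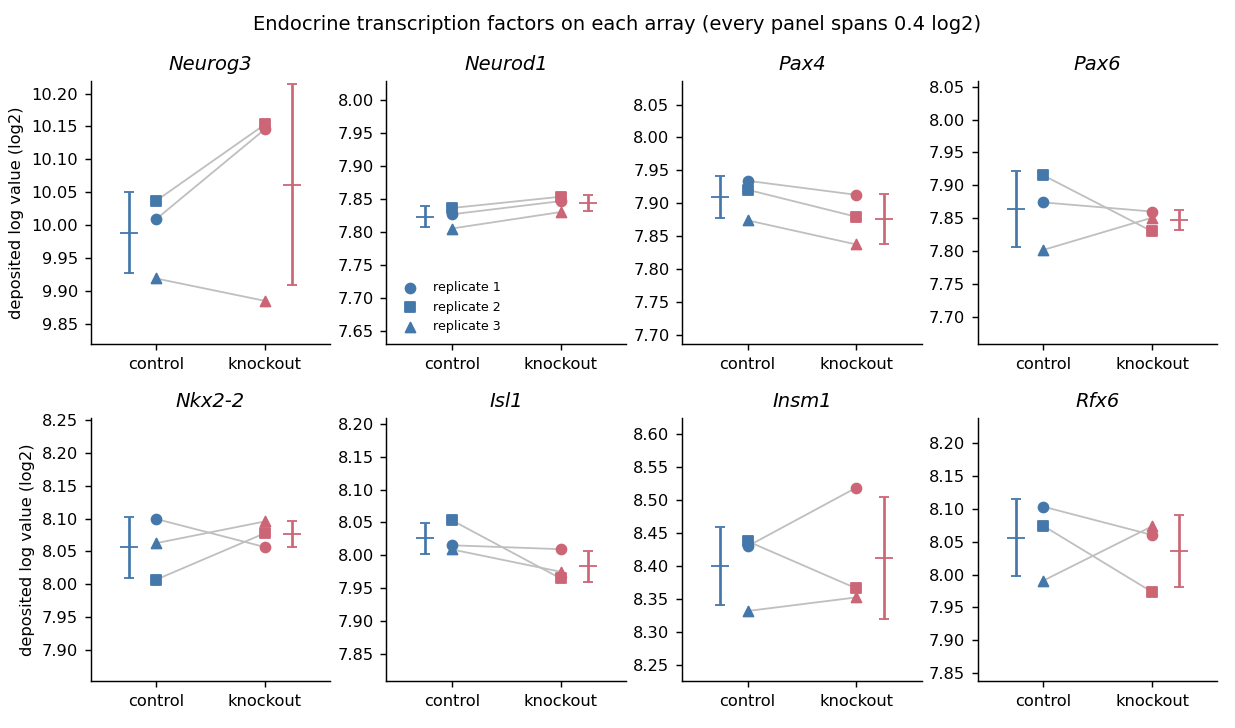
Deposited log value (log2, vertical axis) of each factor on the 3 control (blue) and 3 knockout (red) arrays, with grey lines joining arrays of the same replicate number and bars giving the mean ± SD. Every panel spans the same 0.4 log2 units, and in every panel the 2 groups overlap, with Neurog3 and Insm1 spread most widely.

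Pax4 and Pax6, paired-box factors of endocrine subtypes, were both near the median of all probes. Pax4 read 7.93, 7.92 and 7.87 in control and 7.91, 7.88 and 7.84 in knockout, lower in 3 of 3 pairs but with overlapping groups, and differed by -0.033 ± 0.029 (SE; limma adjusted p = 0.93). Pax6 read 7.87, 7.92 and 7.80 in control and 7.86, 7.83 and 7.85 in knockout, so its knockout arrays lie inside the control range (difference -0.017 ± 0.033, SE; limma adjusted p = 0.99). The second, dimmer probe of Pax6 differed by -0.014 ± 0.026 (SE; limma adjusted p = 0.98 over all probes). The files give no detection calls, so neither gene can be called present at this brightness.

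Nkx2-2, a homeodomain factor that works below Neurog3, read 8.10, 8.01 and 8.06 in control and 8.06, 8.08 and 8.10 in knockout, a difference of 0.020 ± 0.030 (SE; limma adjusted p = 0.97). The knockout arrays again lie inside the control range. Its dimmer probe differed by -0.020 ± 0.022 (SE; limma adjusted p = 0.96 over all probes), so the 2 probes differ in sign and neither passed. Rfx6, a winged-helix factor needed for several hormone types, read 8.10, 8.07 and 7.99 in control and 8.06, 7.97 and 8.07 in knockout. The groups overlap in part, with knockout array 2 the lowest and control array 1 the highest of the 6. It differed by -0.020 ± 0.042 (SE; limma adjusted p = 0.99), and its other probe by -0.0014 ± 0.017 (SE; limma adjusted p = 0.999 over all probes). Of the 11 probes of the members, 0 passed over all probes, against 0.106% of them.

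Isl1, a LIM-homeodomain factor of differentiating endocrine cells, had the lowest p of the 8. It read 8.02, 8.05 and 8.01 in control and 8.01, 7.96 and 7.98 in knockout, and came closest to separate groups, with knockout array 1 (8.0093) just above control array 3 (8.0090). The difference was -0.043 ± 0.024 (SE; limma unadjusted p = 0.12, adjusted p = 0.81), lower in 3 of 3 pairs by unequal amounts (-0.0059, -0.088 and -0.034). With the replicate block its adjusted p was 0.73.

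**Figure D2:**
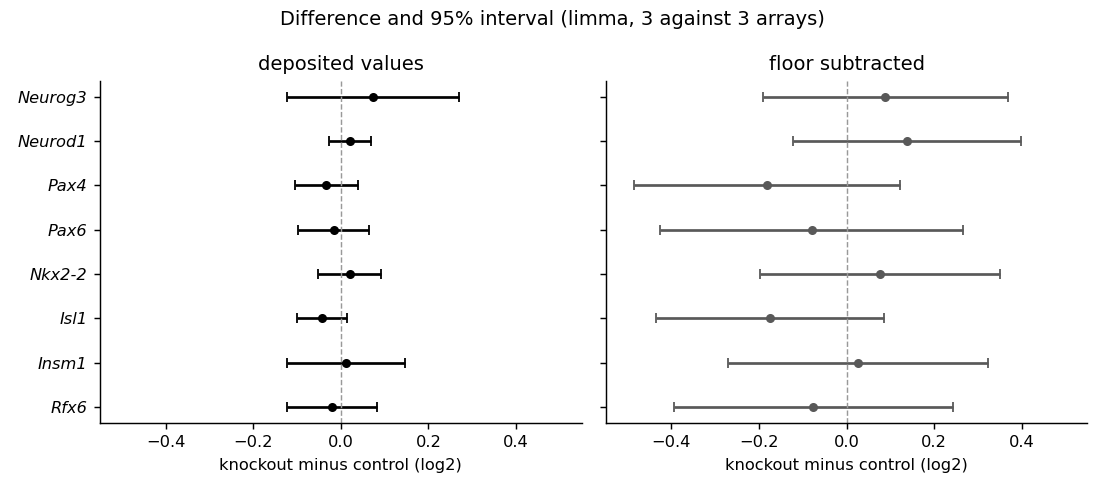
Knockout minus control difference (log2, horizontal axis) of each factor with its 95% interval from limma, 3 against 3 arrays, on the deposited values (left) and after subtracting the lowest deposited value on the linear scale and adding 16 (right). All 8 intervals include 0 on both scales, and all are wider on the right, as for Pax4 from -0.10 to 0.038 on the left to -0.49 to 0.12 on the right.

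How wide the bounds are depends on the compressed scale. When the lowest deposited value was subtracted on the linear scale and 16 added before taking log2 again, the interval for Neurog3 was -0.19 to 0.37, a fold of 0.876 to 1.29. For the dim factors the bounds widened more: Pax4 differed by -0.18, with an interval of -0.49 to 0.12 and a fold of 0.714 to 1.09, and Isl1 by -0.17, with a fold of 0.740 to 1.06. No member passed on this scale either (lowest adjusted p 0.86, limma). The interval for Neurod1 reached a fold of 1.32, the highest upper bound of the 8. The added 16 still shrinks changes in the dimmest factors, so these folds are bounds for this setting only. Other constants were not tried.

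Array number and genotype could be set side by side for each factor. For Neurog3 the means of the arrays numbered 1, 2 and 3 were 10.08, 10.10 and 9.90, a range of 0.19 beside a genotype difference of 0.073. For Insm1 they were 8.47, 8.40 and 8.34, a range of 0.13 beside 0.013. A range over 3 means and a difference of 2 means are unlike measures, so their sizes do not rank number against genotype. In Neurog3, Neurod1, Pax4 and Insm1 the array numbered 3 was the lowest of its group in both genotypes, a pattern of 14.2% of all genes, and control array 3 was the lowest control in 7 members, against 34.8% of all genes. The labels do not explain the number, and its part in these values was not tested.

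The genes whose pattern over the 6 arrays was most like that of the 2 members above the upper quartile are given as a description, from 6968 candidates above the same quartile. For Neurog3 they were Gabarapl1 (Pearson's r = 0.991) and Ddah1 (r = 0.969), and 45 candidates had r above 0.9. For Insm1 they were Sap30 (r = 0.992) and Ing4 (r = 0.988), with 93 candidates above 0.9. None of these 4 genes differed between genotypes by more than 0.11 (limma adjusted p from 0.94 to 0.999). These r values are the highest of many candidates over only 6 arrays, and whether they exceed chance was not tested.

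Other transcription factors listed for the endocrine lineage did not pass either, and Pdx1 and Sox4 had the lowest p among them. Of 27 measured, 0 were called in either direction, 13 had a higher and 14 a lower mean, and the median difference was -0.0017. Pdx1, a homeodomain factor of the proximal gut and pancreas, read 8.88, 9.05 and 8.94 in control and 8.62, 8.51 and 8.62 in knockout, with no overlap. Its difference was -0.38 ± 0.054 (SE; limma adjusted p = 0.14), and it passed in 2 of 17 alternatives, with a trended and robust variance (adjusted p = 0.014) and with the floor subtracted (adjusted p = 0.0498). Sox4, an SRY-related factor of early progenitors, read 9.82, 9.81 and 9.62 in control and 10.06, 10.07 and 10.03 in knockout, again with no overlap, a difference of 0.31 ± 0.057 (SE; limma adjusted p = 0.26). The dimmer Sox4 probe differed by -0.034, the other way, with groups that also do not overlap, and the mean of both probes by 0.14. The pioneer factor Foxa1 differed by 0.13 ± 0.034 (SE; limma adjusted p = 0.42) and Nkx6-3, a homeodomain factor read near the bottom of the scale, by -0.16 ± 0.043 (SE; limma adjusted p = 0.42, and 0.047 with a trended and robust variance). Groups did not overlap for 5 of the 27, against 12.0% of all genes, and 6 of the 27 had an unadjusted p under 0.05, against 7.22% of all genes. Foxa1 and Foxa2 were among the 5, and Cdx2, Foxa1 and Foxa2 among the 6. The list is not confined to endocrine cells, since Cdx2, with a mean of 12.7, is also among the epithelial markers. These counts are therefore not of endocrine cells alone.

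Upstream of the members, the Notch and Atoh1 circuit had 0 of 22 genes called, 14 with a higher mean and 8 with a lower one, and a median difference of 0.020. Groups did not overlap for 5 of the 22 (2 higher and 3 lower in the knockout), against 12.0% of all genes. Dll1, Rfng, Id3 and Klf4 were among these 5. Atoh1, which specifies secretory progenitors, read 7.79, 7.81 and 7.77 in control and 7.81, 7.80 and 7.77 in knockout. Its mean was below the median of all probes, with 5.70% of probes dimmer. With no detection calls given, Atoh1 cannot be called present or absent. The Notch ligand Dll1, which secretory progenitors display, differed by 0.091 ± 0.034 (SE; limma adjusted p = 0.65) and was higher on every knockout array than on any control array. Rfng, a glycosyltransferase that modifies Notch, differed by 0.081, Id3, an inhibitor of helix-loop-helix factors, by -0.16, and the differentiation factor Klf4 by -0.062 (limma adjusted p from 0.62 to 0.72). The other probes of Klf4 differed by -0.0071 and 0.022, and the mean of its probes by -0.016. Among the 9 SNAG-domain factors, 0 were called. Of these Snai3, a relative of Snai1, differed by 0.13 and Snai2 by -0.028. Scrt2 differed by -0.039 (its other probe by -0.0035) and Gfi1b by 0.049 (its other probe by -0.018). Their limma adjusted p ran from 0.67 for Snai3 to 0.92 for Snai2.

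Downstream, 10 of 19 measured genes in the list of hormones and amine synthesis lay above the upper quartile of all values. Of all 19057 genes, each taken by its brightest probe, 6969 did. Sct (secretin), Gcg (glucagon), Chgb (chromogranin B), Sst (somatostatin) and Cck (cholecystokinin) were among the 10. In this hormone list, which also holds the helix-loop-helix gene Neurod6, 0 genes were called. There, 6 had a higher and 13 a lower mean, and the median difference was -0.030. Groups did not overlap for 3 of the 19, all lower in the knockout, against 12.0% of all genes. The 4 of lowest p were Chga (-0.17), Ghrl (-0.29), Tph1 (-0.062) and Ddc (-0.22), with limma adjusted p from 0.39 to 0.73. For Chga, the granule protein chromogranin A, the brightest probe read 8.40, 8.44 and 8.42 in control and 8.17, 8.26 and 8.33 in knockout. The other Chga probes differed by -0.054 and -0.075. The dimmer Ghrl probe differed by -0.092, and the dimmer Ddc probes by -0.30 and 0.024. The list of granule machinery, which also holds receptors and channels such as Gpr119 and Kcnj11, had 3 of 24 genes above the upper quartile and 0 called. Its means were higher for 14 and lower for 10, with a median difference of 0.0018. In it the fatty acid receptor gene Ffar4 differed by 0.12, Ptprn2 by 0.056, Bex2 by 0.058 and Pam, which amidates peptide hormones, by -0.081. These last 3 depend on the probe: with the probes of each gene averaged, Ptprn2 differed by 0.017, Bex2 by 0.026 and Pam by -0.024. Without control replicate 2, Pam differed by -0.017.

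**Figure D3:**
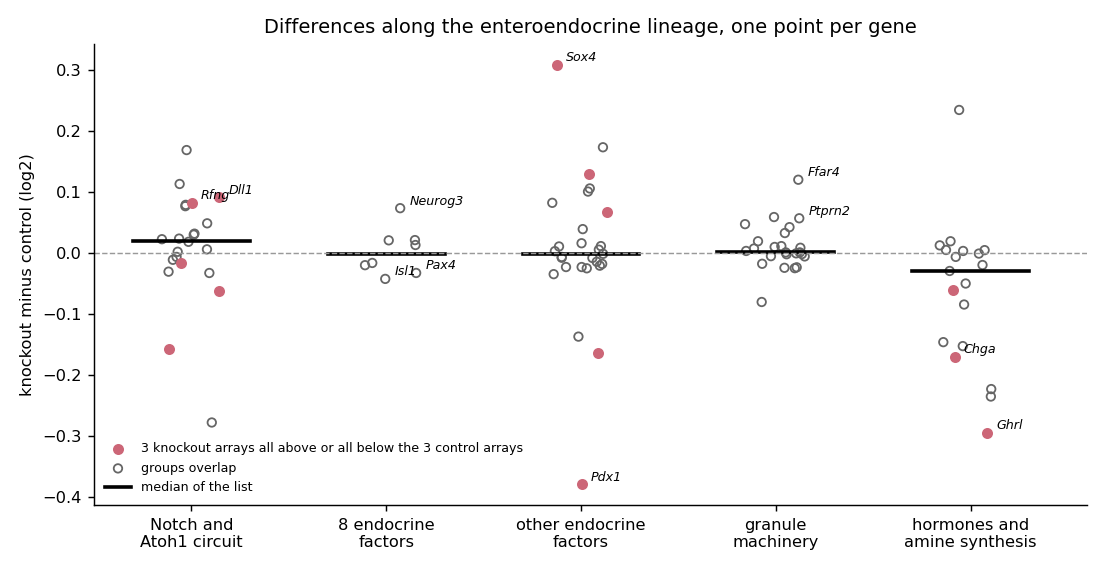
Knockout minus control difference (log2, vertical axis) of each measured gene in 5 lists ordered along the lineage. Filled points are genes whose 3 knockout arrays lie on one side of the 3 control arrays, and bars are medians. Each gene is drawn by its brightest probe. The granule list also holds receptors and channels, and the hormone list holds the chromogranins Chga and Chgb. The list of other endocrine factors includes Cdx2, which is also an epithelial marker. The 8 factors lie within -0.043 to 0.073, but only 2 of them read above the upper quartile of all values. The rest lie lower on a scale that is compressed near its bottom. Sox4 at 0.31, Pdx1 at -0.38, Ghrl at -0.29 and Id1 at -0.28 lie further out and read above that quartile.

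Pearson's r between arrays was 0.994 to 0.997 across the 45281 probes, and precision is set by having 3 arrays a group. Snai1 itself read 7.91 ± 0.04 in control and 7.91 ± 0.05 in knockout (SD, n = 3), at the bottom of the scale. The labels do not place the deletion relative to its probes, which therefore do not check the genotype. All 10 epithelial markers were above the median of all probes and 9 above the upper quartile. No marker of enteric neurons and glia (8 measured, which use several of the same factors), mesenchyme (8), immune cells (4) or endothelium (4) was above that quartile, and the highest of them read 8.11. No gene was called in the marker lists of these cells or of stem, Paneth, goblet, tuft and absorptive cells. Of these, all 5 stem cell markers had a higher mean in the knockout (median difference 0.28, groups apart for 1). All 6 enterocyte markers had a lower one (median -0.058, groups apart for 0). Tuft markers were higher for 5 of 6 (groups apart for 1) and Paneth markers for 2 of 4 (groups apart for 1). Goblet markers were higher for 2 of 6 (groups apart for 0). Over all genes, 49.3% had a higher mean and groups did not overlap for 12.0%. The part of these cells in the values of the endocrine lists was not tested.

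Neurod1, Pax6, Nkx2-2 and Insm1 share chromosome 2 with Snai1. In the GRCm38.p6 gene order, 282 measured genes lie between Snai1 and Nkx2-2, 287 between Snai1 and Insm1, 627 for Pax6 and 981 for Neurod1. The nearest called gene to each is Pdrg1, 75 genes from Nkx2-2 and 80 from Insm1. These 4 members differed by -0.017 to 0.021, and the other 4, on other chromosomes, by -0.043 to 0.073.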

How the data were processed

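Total RNA of organoids was amplified to biotinylated cRNA and hybridised to Illumina arrays, per the labels' protocols. The deposited table holds log values, taken here as log2, for 45281 probes on 6 arrays. Sorted, the columns differ by 0.0019 or less, so distributions had been equalised by the authors. No label states the log base, background correction or software. Values were used as deposited, with no filter.

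GEO's platform annotation names 1 gene for 34885 probes, several for 18 and none for 10378, and 34807 of the probes with 1 gene were found in the GRCm38.p6 table by gene number. Each gene was taken by its brightest probe. Genotypes were compared in R 4.3.3 with limma 3.58.1 (no block, 95% intervals, adjustment over all 19057 genes), tested on simulated data first. Members and the 16 gene lists (164 of 176 symbols measured) were chosen with earlier results of these data known. All members are named, as are the 4 genes of lowest p in each pathway list.

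Replicate numbers are shared between groups. Deviations from the group means correlated at 0.35, 0.33 and 0.46 for arrays numbered 1, 2 and 3, so the numbers were treated as pairing the arrays in the blocked fit. The pairing comes from this check and from the titles, which do not say what a number shares. Alternatives covered the block, normalization, filters, probe choice, variance model, array weights, floor and leaving out each array.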

Additional observations from a re-analysis of the deposited data

How the results depend on the processing

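No member passed limma's test in any of 17 alternatives. Of 128 differences, 121 kept their sign, and the lowest adjusted p was 0.63. A filter at the median of all values removed 2 members and one at the upper quartile removed 6, so these have no value there. Neurog3 ran from 0.027 to 0.16. Signs turned, with the cause not tested, for Insm1 with array weights (-0.00051) and, leaving out 1 array, for Insm1 (-0.041 to 0.043), Rfx6 (-0.053 to 0.011), Pax6 (-0.048 to 0.0091), Nkx2-2 (-0.0043 to 0.042), Snai1 (-0.026 to 0.022) and Atoh1 (-0.0047 to 0.016). They also turned for Snai1 with array weights (0.00033) and with averaged probes (0.0061), and for Atoh1 with median centring (-0.0014).

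With the replicate block 9 genes were called in place of 25, and no member or list gene changed its call. The count was 41 among genes above the upper quartile, where fewer were tested, 71 with a trended and robust variance, 42 with the floor subtracted, and 4 to 23 leaving out 1 array (leaving out control array 1, 2 or 3 gave 6, 15 and 9, and leaving out knockout array 2 or 3 gave 13 and 4). In the 5 pathway and product lists, 2 genes passed with the trended variance, Pdx1 and Nkx6-3, and 1 with the floor subtracted, Pdx1, in place of 0. Settings other than the block, averaged probes and median centring were added for these lists after seeing the data.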
